A study of Mus musculus with 4 samples.

Results

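The promoters of 10 genes that carry and restrain transforming growth factor beta (TGFB) signalling were examined in H3K4me3 HiChIP-seq data of MLg cells, an established mouse lung fibroblast line. The genes were Tgfbr1, Tgfbr2, Smad2, Smad3, Smad4, Smad6, Smad7, Ski, Skil and Tgif1, chosen by name out of 21728 protein-coding genes of the GENCODE mouse annotation (build mm10) on chromosomes 1 to 19 and X. All 10 passed the minimum of 50 pairs summed over the libraries for both measures used, against 20346 promoters that passed it for level and 20847 for contacts. HiChIP-seq joins DNA ends that lie close together in the nucleus and then pulls down chromatin with an antibody, here against H3K4me3, so that each sequenced pair reports a contact, and the number of pair ends at a place rises with the histone mark there. There was 1 library per condition, prepared 24 h after transfection of an antagomiR, a short antisense oligonucleotide, at 60 nM. The TGFB1 library came from cells given TGFB1 at 5 ng/ml for the last 4 h, the miR-9-LOF library from cells given the antagomiR against miR-9, and the TGFB1+miR-9-LOF library from cells given both. The Control library received neither TGFB1 nor the miR-9 antagomiR. The labels call the Control cells WT and give no antagomiR for them or for the TGFB1 cells, whereas the methods of the study state a negative control antagomiR. Values of the libraries are given throughout in the order Control, TGFB1, the combined TGFB1+miR-9-LOF and last miR-9-LOF. Since no condition had a second library, every test below compared libraries and not conditions, and every interval (95%) and floor covers counting error only.

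TGFB ligands bring together a pair of receptor kinases: TGFBR2 binds the ligand and activates TGFBR1, which phosphorylates SMAD2 and SMAD3. These join SMAD4, enter the nucleus and bind DNA beside other factors. SMAD6 and SMAD7 inhibit the pathway at the receptors, while SKI, SKIL (also called SnoN) and TGIF1 bind SMAD complexes and recruit corepressors. SMAD7 and SKIL are textbook TGFB target genes and act as negative feedback. H3K4me3 marks the start sites of active genes, and fibroblasts are known to answer TGFB with matrix production.

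Sequences of the promoters show only part of what the assay could read, since the windows counted below reach 2 kb or more on each side. Ends in these libraries can lie only near sites of the restriction enzyme MboI. RefSeq promoter sequences (build GRCm38.p6), which run from 250 bases before to 50 bases after the RefSeq start, were matched for 6 of the 10 genes. Smad3 and Smad6 are printed because their mutual contacts are followed below, Tgfbr1 as the gene of lowest level and Tgif1 as the gene of highest level. The Smad3 promoter is chr9:63757945-63758244 (minus strand), the Smad6 promoter chr9:64022010-64022309 (minus strand), the Tgfbr1 promoter chr4:47352972-47353271 (plus strand) and the Tgif1 promoter chr17:70851161-70851460 (minus strand). All are written 5′ to 3′ on the strand of the gene. Capitals mark the MboI site GATC and, in Smad6, the palindrome GTCTAGAC. The mature miR-9-5p, the RNA that the antagomiR is directed against, follows with its seed (bases 2 to 8) in capitals.
Smad3: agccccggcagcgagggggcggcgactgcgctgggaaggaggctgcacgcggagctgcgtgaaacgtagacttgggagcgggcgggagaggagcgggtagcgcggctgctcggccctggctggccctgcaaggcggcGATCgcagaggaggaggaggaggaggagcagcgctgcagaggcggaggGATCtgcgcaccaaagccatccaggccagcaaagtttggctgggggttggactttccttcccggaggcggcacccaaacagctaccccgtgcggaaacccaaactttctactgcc
Smad6: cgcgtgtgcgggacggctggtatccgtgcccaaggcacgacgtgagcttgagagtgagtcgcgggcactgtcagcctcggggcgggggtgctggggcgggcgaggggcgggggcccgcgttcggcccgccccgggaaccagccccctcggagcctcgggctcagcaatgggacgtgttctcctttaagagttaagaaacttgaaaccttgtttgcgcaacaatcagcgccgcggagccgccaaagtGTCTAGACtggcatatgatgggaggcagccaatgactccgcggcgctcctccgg
Tgfbr1: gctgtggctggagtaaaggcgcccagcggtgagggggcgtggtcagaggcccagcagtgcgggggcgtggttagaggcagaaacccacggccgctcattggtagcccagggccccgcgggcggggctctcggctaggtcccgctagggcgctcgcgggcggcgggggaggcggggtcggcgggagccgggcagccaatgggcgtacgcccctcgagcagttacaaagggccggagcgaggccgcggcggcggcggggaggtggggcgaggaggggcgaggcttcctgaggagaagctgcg
Tgif1: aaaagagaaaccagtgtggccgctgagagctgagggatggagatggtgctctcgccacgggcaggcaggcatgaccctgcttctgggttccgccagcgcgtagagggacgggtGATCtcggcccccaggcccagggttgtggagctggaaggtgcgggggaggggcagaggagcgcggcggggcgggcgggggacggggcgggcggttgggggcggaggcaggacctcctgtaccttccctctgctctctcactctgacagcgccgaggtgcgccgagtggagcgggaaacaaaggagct
miR-9-5p: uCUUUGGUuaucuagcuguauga

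The matched promoters were rich in CpG. They held 15 (Tgfbr2), 23 (Tgif1), 25 (Smad3), 31 (Smad6), 34 (Tgfbr1) and 59 (Ski) CpG dinucleotides in 300 bases, against a median of 7 over 32841 promoters in the RefSeq table. The site GATC was found in 3 of the 6 promoters (Smad3, Ski and Tgif1) and in 48.0% of the table. GTCTAGAC, the palindrome to which SMAD3 and SMAD4 bind in vitro, lay in Smad6 alone among the 6, starting at position -4 from the RefSeq start, and in 70 promoters of the table (0.213%). CAGACA, a common SMAD element, was found in 0 of the 6 and in 21.04% of the table, on either strand. GGCGCC, a GC-rich SMAD element, was found in Ski and Tgfbr1 and in 11.9% of the table. A G-quadruplex pattern, taken as 4 runs of at least 3 G with 1 to 7 bases between them on either strand, was present in 5 of the 6 promoters (not in Smad3) and in 18.6% of the table.

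The libraries held 10864558 (TGFB1) to 15568047 (miR-9-LOF) valid pairs, of which 4793354 to 6692306 joined ends 20 kb to 2 Mb apart on the same chromosome. The 4 libraries differed in how strongly they were enriched at promoters. Promoters were called marked where ends within 2 kb of the start were at least 4-fold denser than the median flank, which held for 5279 promoters (24.3%). The median marked promoter stood 4.36, 3.5, 2.55 and 2.91-fold above the median of all coding promoters in the 4 libraries, and the calls among the 10 genes are therefore given relative to both medians in each comparison. Of 10 fibroblast marker promoters 5 were marked (Col1a1, Pdgfra, Pdgfrb, Vim and Twist2), whereas none of 6 epithelial, 4 endothelial and 4 leukocyte marker promoters was. Of the 5 unmarked fibroblast promoters, Col3a1, Lum and Thy1 stood at 0.580, 0.723 and 0.765 times the median promoter in Control, within the range of the epithelial list (0.437 to 0.840). The summed level of the fibroblast list was 275, 206, 131 and 146 pairs per 1000000 valid pairs, and that of the epithelial list lay between 28.8 and 32.9 in all libraries. The part of the enrichment in the differences between libraries was not tested. Fewer cells with a marked promoter and less of the mark per cell cannot be told apart in these data.

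The promoter level of a gene was taken as the number of pairs with an end within 2 kb of its start site per 1000000 valid pairs (normalised pairs), and was set against the median coding promoter of the same library (7.75, 7.0, 6.09 and 6.17 normalised pairs). In every library 7 of the 10 genes stood above that median, and Tgfbr1, Smad2 and Smad4 stood below it. The median of the 10 genes was 5.59, 4.00, 2.73 and 3.15-fold above the median promoter in the 4 libraries. Marked promoters were 6 of the 10 (Tgfbr2, Smad3, Smad6, Smad7, Ski and Tgif1).

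**Figure D1:**
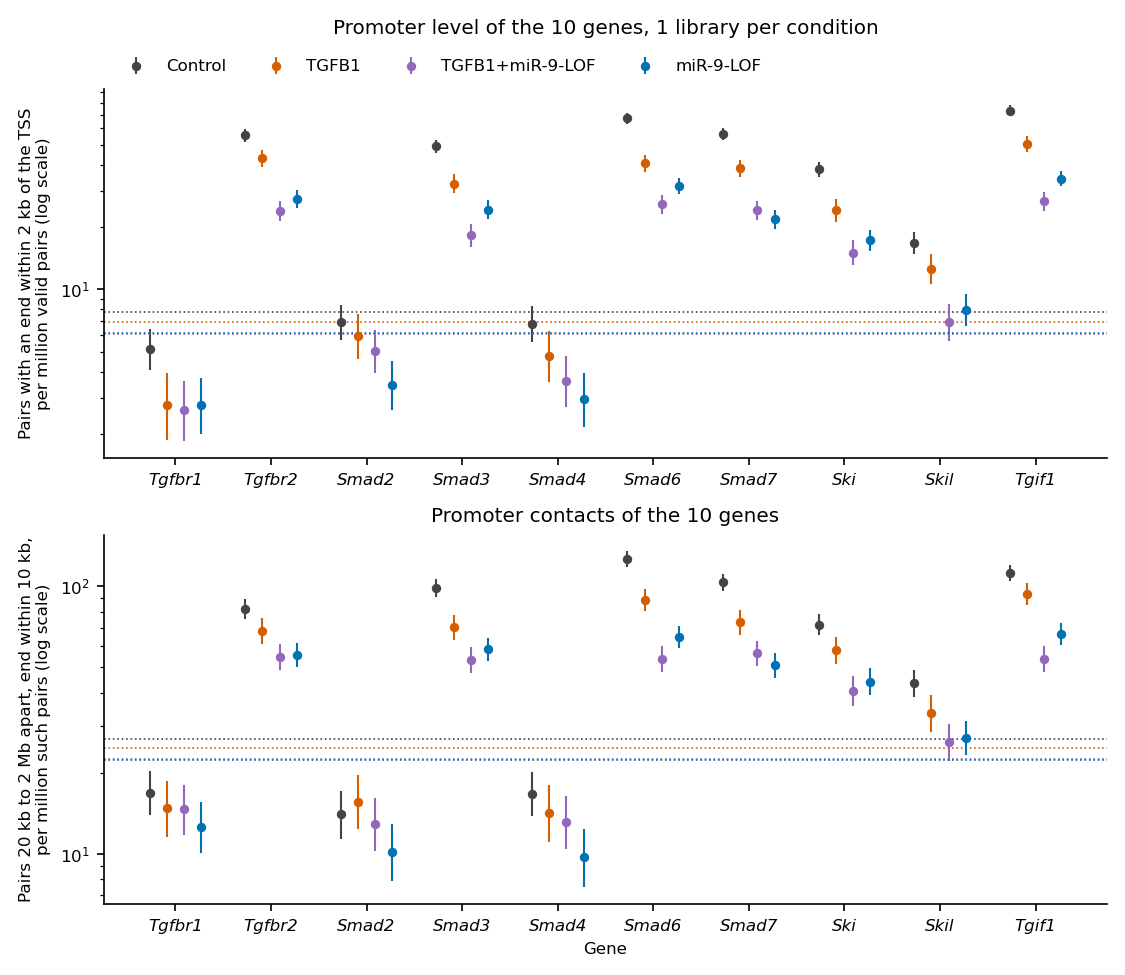
Upper panel, pairs with an end within 2 kb of the start site per 1000000 valid pairs (log scale); lower panel, pairs 20 kb to 2 Mb apart with an end within 10 kb, per 1000000 such pairs (log scale). Points are single libraries, bars 95% Poisson intervals and dotted lines the median coding promoter of each library. Tgif1 runs from 73.1 in Control to 26.6 in TGFB1+miR-9-LOF, and Tgfbr1, Smad2 and Smad4 lie below the median in each library.

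The receptor promoters were far apart in level. Tgfbr2, whose start lies on chromosome 9 at 116175360 (minus strand), encodes the ligand-binding receptor and had 55.5, 43.0, 24.0 and 27.4 normalised pairs (853, 467, 339 and 426 pairs). Tgfbr1, starting on chromosome 4 at 47353222 (plus strand), encodes the receptor kinase that phosphorylates SMADs and had 5.14, 2.76, 2.62 and 2.76 normalised pairs (79, 30, 37 and 43 pairs). Tgfbr2 exceeded Tgfbr1 in each library with no overlap of intervals, and Tgfbr1 was at 0.664 times the median promoter in Control.

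Among the SMADs that carry the signal, Smad3 was high while Smad2 and Smad4 were low. Smad3, the start of which lies on chromosome 9 at 63757994 (minus strand), had 49.3, 32.5, 18.3 and 24.3 normalised pairs. Smad2, whose product is the close relative of SMAD3, starts on chromosome 18 at 76241580 (plus strand) and had 6.97, 5.98, 5.03 and 3.47 normalised pairs from 107, 65, 71 and 54 pairs. Smad4, which encodes the partner shared by all signalling SMADs, starts on the same chromosome at 73703780 (minus strand) and had 6.84, 4.79, 3.61 and 2.95 normalised pairs from 105, 52, 51 and 46 pairs. Control had the highest value for all 3 genes. For Smad2 and Smad4 its interval overlapped that of TGFB1, and for Smad2 also that of TGFB1+miR-9-LOF. The intervals of Smad2 and Smad4 overlapped each other in every library.

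The inhibitory SMADs had some of the highest levels of the 10 genes. Smad6, starting on chromosome 9 at 64022059 (minus strand), had 67.1, 40.9, 25.8 and 31.7 normalised pairs (1030, 444, 364 and 493 pairs). Smad7, starting on chromosome 18 at 75367529 (plus strand), had 56.7, 38.5, 24.1 and 21.8 normalised pairs (871, 418, 341 and 340 pairs). Smad6 and the other high genes were lowest in TGFB1+miR-9-LOF, while Smad7 was lowest in miR-9-LOF, although its intervals in those libraries overlapped.

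The corepressor promoters covered a wide range. Tgif1, a homeodomain corepressor gene starting on chromosome 17 at 70851207 (minus strand), had the highest level of the 10 in every library, with 73.1, 50.5, 26.6 and 34.4 normalised pairs (1123, 549, 376 and 535 pairs). Ski, starting on chromosome 4 at 155222592 (minus strand), had 38.0, 24.1, 15.1 and 17.3 normalised pairs. Skil, with its main start on chromosome 3 at 31096833 (plus strand), had 16.8, 12.6, 6.94 and 7.97 normalised pairs. Skil was the only one of the 7 genes above the median that was not a marked promoter at this start.

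In Control, the intervals of Tgif1 and Smad6 overlapped, as did those of Smad7, Tgfbr2 and Smad3 with their neighbours in the order, and those of Smad2, Smad4 and Tgfbr1. Smad6 was separated from Smad7, Smad3 from Ski, Ski from Skil and Skil from Smad2. In TGFB1 the 5 highest genes (Tgif1, Tgfbr2, Smad6, Smad7 and Smad3) formed an unbroken run of overlapping neighbours, and in miR-9-LOF Smad7 stood behind Tgfbr2 and Smad3 in that run, where it had stood before them in Control.

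MboI was the enzyme that cut the chromatin, and the windows differed in how many of its sites they held. Within 2 kb of the start, Smad2, Tgfbr1 and Skil had 5 sites and Smad4 6, whereas Smad6 had 8, Smad3 and Tgif1 9, Ski 10, Tgfbr2 12 and Smad7 13, against a median of 9 over all coding promoters and 11 over marked ones. Ends per site, set against the ends per site of the flanks of the same gene 10 to 100 kb away, gave over the 4 libraries together a local fold of 9.86 for Tgif1, 9.21 for Smad6, 6.80 for Smad7, 6.68 for Tgfbr2, 5.72 for Smad3, 5.64 for Skil and 5.29 for Ski. The fold was highest in Control for each of the 10 genes, at 15.4 for Tgif1 and 13.6 for Smad6 against 5.65 and 5.66 in TGFB1+miR-9-LOF. No intervals were computed for these folds, so changes in the order of the genes between libraries were not tested. Over the 4 libraries together Smad2 reached 4.43, the 81.5th percentile of coding promoters, where its level had been below the median. Smad4 (2.80) and Tgfbr1 (2.41) remained the lowest, yet above the median local fold of 1.77. The flanks of these 3 genes were sparse in ends, at 0.599 (Smad2), 0.674 (Smad4) and 0.693 (Tgfbr1) times the median flank, while the flanks of Smad3 and Smad6 stood at 1.56 and 1.47 times.

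Ends were placed unevenly around the starts. For Smad2 96.0% of the ends within 2 kb lay upstream, for Skil 81.1% and for Smad4 79.7%, while for Tgfbr2 15.0%, for Tgif1 18.6% and for Smad6 18.7% did. Skil had a second group of starts 1775 bp upstream of the one used, with 908 pairs over the 4 libraries against 617, and Tgif1 had starts 1417 and 1563 bp downstream with 2808 pairs against 2583. At Smad3 the internal starts held 159 to 316 pairs, against 1748 at the main start. Smad7 had a second peak 5500 to 6000 bp downstream of its start, inside the gene, with 158, 112, 62 and 68 ends. That stretch held MboI sites at 5554, 5616, 5661 and 5984 bp. None of these shares and counts was corrected for where the sites lay.

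**Figure D2:**
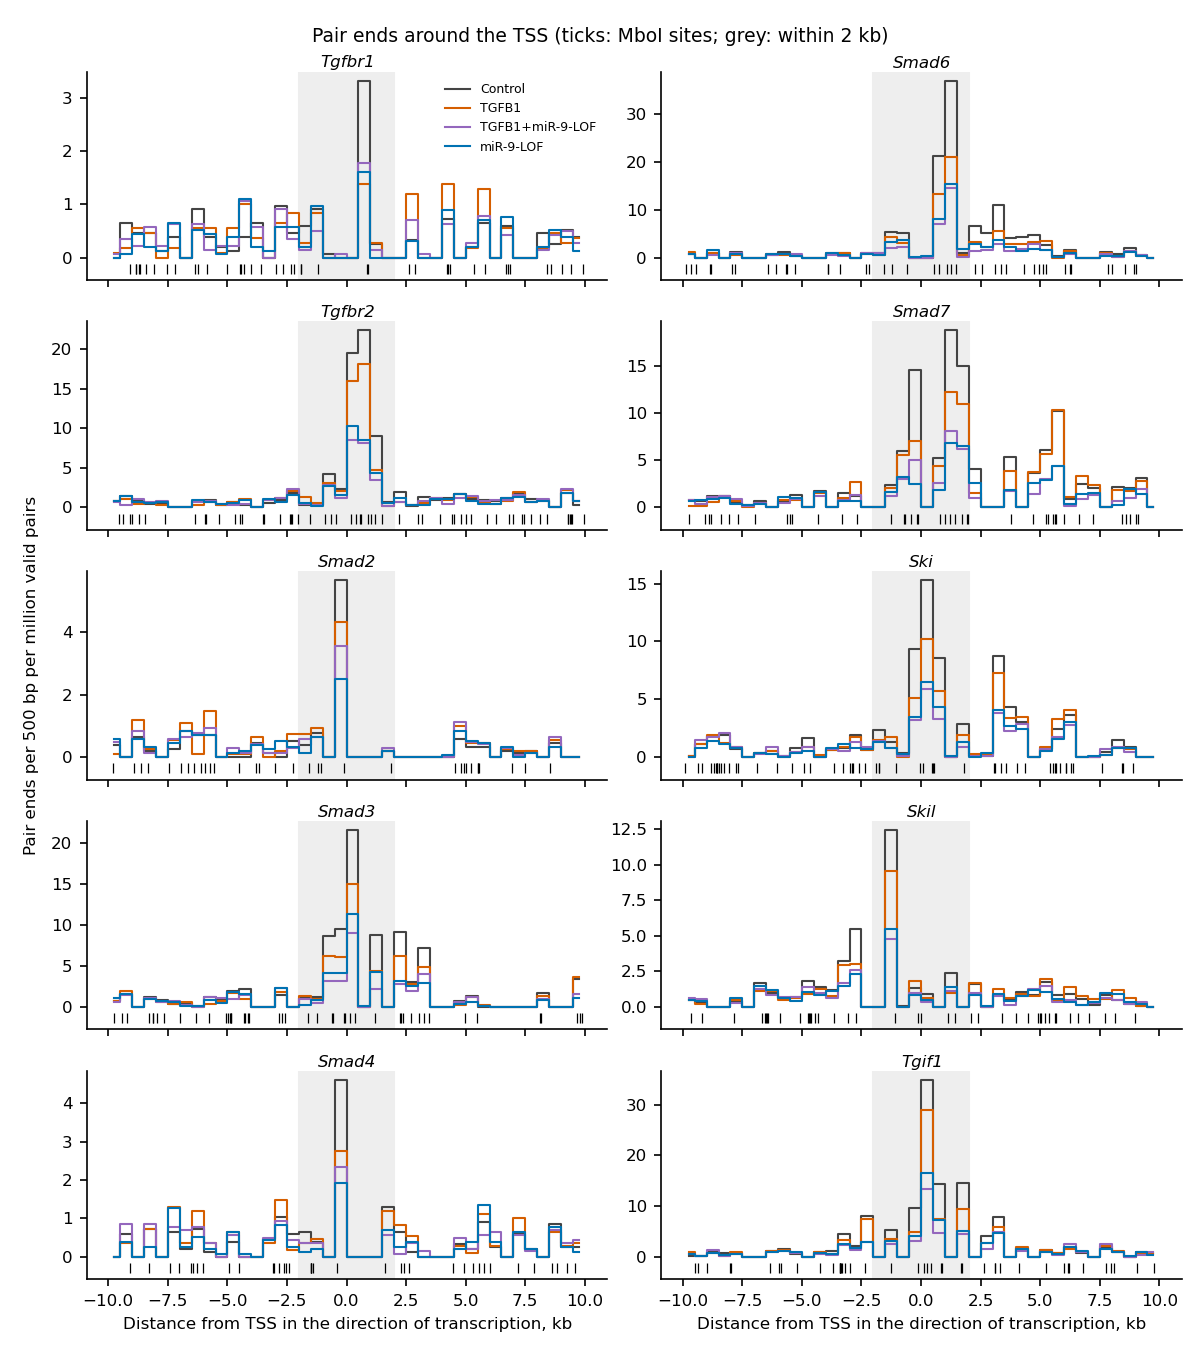
Pair ends per 500 bp per 1000000 valid pairs (y axis, scaled for each gene) by distance from the start site in kb, for the 4 libraries. Ticks are MboI sites and the grey band is the window of 2 kb on each side. Single tall bars at sites carry the signal of Smad2, Smad4, Tgfbr1 and Skil, and Smad7 has a second peak near 5.5 kb.

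Contacts of a gene were taken as pairs 20 kb to 2 Mb apart with an end within 10 kb of its start, per 1000000 such pairs (normalised contacts). That window contains the 2-kb window of the level, so pairs can enter both measures. Contacts were not corrected for the number of ends at the promoter. The order of the genes was close to that of the levels. In Control, Smad6 had 126 normalised contacts, Tgif1 112, Smad7 104, Smad3 98.8, Tgfbr2 82.2, Ski 71.7 and Skil 43.3, against 26.7 at the median promoter. Tgfbr1 (16.9), Smad4 (16.7) and Smad2 (14.0) lay below that median, as they did in each of the other libraries. Smad6 was first in Control, Tgif1 in TGFB1 and miR-9-LOF, and Smad7 in TGFB1+miR-9-LOF, but the leading genes overlapped their neighbours in all 4. In TGFB1+miR-9-LOF the 5 highest genes lay between 52.9 and 56.3 normalised contacts.

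Ratios between libraries were taken relative to the median coding promoter, that is, as the log2 ratio of normalised pairs or contacts minus its median over all promoters tested. In level this median was -0.28 for TGFB1 over Control, -0.32 for TGFB1+miR-9-LOF over TGFB1, -0.44 for miR-9-LOF over Control and -0.10 for TGFB1+miR-9-LOF over miR-9-LOF, and in contacts it was -0.15, -0.16, -0.25 and -0.05. Each was tested by a two-sided exact binomial test of the pairs in the 2 libraries, adjusted by Benjamini-Hochberg over all promoters tested, with a call at an adjusted p of at most 0.05. The comparisons share libraries, so their values are set side by side and are not independent. In no comparison was any of the 10 genes called higher, in level or in contacts, by any of the scalings. The percentage of all promoters called lower or higher is given first for each comparison as its background.

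TGFB1 against Control compares a library from cells given the cytokine for 4 h with a library from cells without it. In level, 7.22% of promoters were called lower and 2.76% higher (1469 and 562 promoters, against 76 and 1676 relative to the median marked promoter, 75 and 74 within deciles of coverage and 7417 and 195 from library totals alone). By the exact binomial test 5 of the 10 genes were called lower, namely Smad6 (relative log2 -0.44, adjusted p = 8.6e-05), Ski (-0.38, 0.0112), Smad3 (-0.33, 0.0116), Smad7 (-0.28, 0.0186) and Tgif1 (-0.26, 0.0143). Tgfbr1 had the most negative value, -0.62, but rested on 30 and 79 pairs (interval -1.28 to 0.0015) and was not called after adjustment (adjusted p = 0.182, unadjusted p = 0.0468, exact binomial test). The median of the 10 genes was -0.27, and that of the marked promoters, of which 22.9% were called lower, was -0.19. Relative to the marked median Smad6 alone of the 10 was called (-0.25), and relative to promoters in the same decile of coverage none was. From library totals 8 of the 10 were called lower, and with a window of 1 kb none was.

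In contacts, 3.65% of promoters were called lower and 1.27% higher (760 and 264 promoters, against 51 and 1645, 38 and 83, and 3622 and 146 under the same 3 scalings). By the exact binomial test Smad6 went from 844 to 427 pairs (relative log2 -0.36, adjusted p = 0.00412), Smad7 from 693 to 352 (-0.35, 0.0119) and Smad3 from 661 to 336 (-0.35, 0.0150). These 3 calls were the calls among the 10 genes, whose median was -0.15 against -0.17 for marked promoters. None of the 10 was called relative to the marked median, within its decile of coverage, or when only pairs at least 100 kb apart were counted, and 6 were called lower from library totals.

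TGFB1+miR-9-LOF against TGFB1 compares libraries with and without the miR-9 antagomiR, both from cells given the cytokine. In level, 16.8% of promoters were called lower and 4.87% higher (3415 and 990 promoters, against 140 and 5203 relative to the median marked promoter, 35 and 71 within deciles of coverage and 7940 and 175 from library totals). Of the 10 genes 7 were called lower, and 2 with a window of 1 kb, where 7.69% of all promoters were. Tgif1 had the most negative value (relative log2 -0.60, interval -0.80 to -0.41), followed by Skil (-0.54), Tgfbr2 (-0.52), Smad3 (-0.51), Ski (-0.36), Smad7 (-0.35) and Smad6 (-0.34). Marked promoters had a median of -0.36, with 55.5% called lower. The direction of Smad6, Smad7 and Ski turned relative to that median, to 0.0152, 0.0081 and 0.00311, and Tgif1 alone was then called (-0.24). Relative to promoters in the same decile of coverage none of the 10 was called, and Smad6 and Smad7 turned to 0.0642 and 0.0570.

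In contacts, 6.18% of promoters were called lower and 1.27% higher in this comparison (1289 and 265 promoters, against 115 and 3178, 34 and 51, and 4106 and 97 under these scalings). The calls among the 10 genes were Tgif1, with 319 pairs in TGFB1+miR-9-LOF and 449 in TGFB1 (relative log2 -0.65, interval -0.86 to -0.43), and Smad6, with 319 and 427 pairs (-0.57, interval -0.79 to -0.36). Tgif1 lay at the 0.518th percentile of all promoters and Smad6 at the 1.17th. Both were also called relative to the marked median (-0.40 and -0.33), whereas neither was called within its decile of coverage, and from library totals 6 of the 10 genes were called lower. Smad7, for comparison, had 335 and 352 pairs and a relative log2 of -0.22.

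miR-9-LOF against Control compares libraries with and without the miR-9 antagomiR, both from cells without added TGFB1. In level, 33.0% of promoters were called lower and 17.9% higher (6715 and 3633 promoters, against 631 and 10172 relative to the median marked promoter, 992 and 805 within deciles of coverage and 9930 and 473 from library totals). Of the marked promoters 89.0% were called lower. All of the 10 genes but Tgfbr1 were called lower, with values from -0.56 (Smad2, 54 and 107 pairs) to -0.93 (Smad7, 340 and 871 pairs). The median of the 10 was -0.64 and that of marked promoters -0.49. Relative to the marked median Smad7 was the only call (-0.45). Within deciles of coverage the calls were Smad7 (-0.39), Smad4 (-1.17), Tgfbr1 (-0.98) and Smad2 (-0.83), the last 3 from at most 107 pairs in a library.

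In contacts, 23.3% of promoters were called lower and 15.4% higher between the miR-9-LOF and Control libraries (4859 and 3205 promoters, against 498 and 10413, 1202 and 1012, and 8698 and 1094 under these scalings). Of the 10 genes 8 were called lower, namely Smad7 (-0.79), Smad6 (-0.72), Smad4 (-0.54), Smad3 (-0.52), Tgif1 (-0.51), Ski (-0.46), Skil (-0.43) and Tgfbr2 (-0.33). The call of Tgfbr2 turned in direction, without a call, to 0.0481 relative to marked promoters and to 0.0928 within its decile of coverage. Smad7 and Smad6 were called relative to marked promoters (-0.41 and -0.34), and Smad7 (-0.36), Smad6 (-0.30) and Smad4 (-0.82) within deciles of coverage. Tgfbr1 and Smad2 gave values of -0.18 and -0.22 with intervals that included 0.

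TGFB1+miR-9-LOF against miR-9-LOF compares libraries with and without the cytokine, both from cells given the miR-9 antagomiR. The background was low, with 0.845% of promoters called lower and 0.300% higher in level and 0.115% and 0.101% in contacts, and 0 of the 10 genes were called in either measure by the exact binomial test. The calls were 172 lower and 61 higher in level and 24 and 21 in contacts, against 63 and 211 and 15 and 40 relative to the median marked promoter, 46 and 28 and 11 and 10 within deciles of coverage, and 1041 and 54 and 55 and 9 from library totals. At an unadjusted p under 0.05, 2828 promoters in level and 2272 in contacts passed, with 4 and 2 of the 10 genes among them. In level these were Smad2 (0.64, interval 0.11 to 1.18, 71 and 54 pairs), Smad7 (0.25, 0.03 to 0.47), Smad3 (-0.31, -0.54 to -0.08) and Tgif1 (-0.26, -0.46 to -0.07). Relative to the median marked promoter these values were 0.75, 0.36, -0.20 and -0.16, and none of the 10 was called. From library totals alone Smad3 (-0.41) and Tgif1 (-0.37) were called lower in level, and with a window of 5 kb Tgif1 (-0.29) was. Whether the ratio of the TGFB1 libraries differed with and without the antagomiR was not tested.

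**Figure D3:**
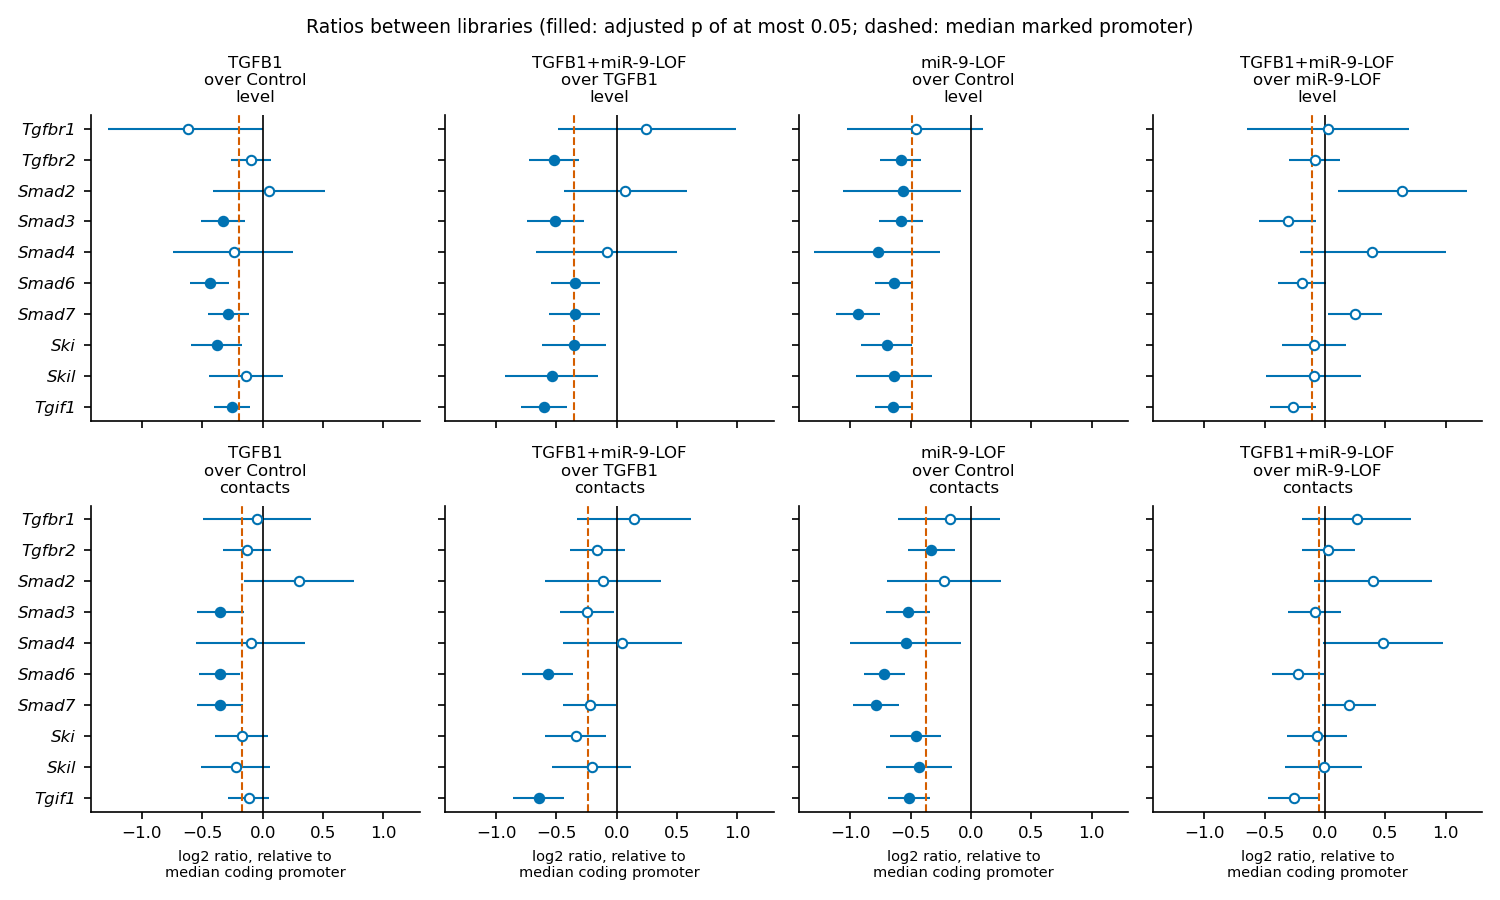
log2 ratio of normalised pairs or contacts between 2 libraries, relative to the median coding promoter (x axis), for level (upper row) and contacts (lower row) in the 4 comparisons. Points are genes with 95% intervals, filled where the adjusted p was at most 0.05, and the dashed line is the median marked promoter. All 10 genes lie below 0 for miR-9-LOF over Control, with Smad7 farthest from the dashed line among the called genes.

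Smad7 was the marked promoter among the 10 whose value stood farthest from the median marked promoter. From Control to miR-9-LOF its level went from 56.7 to 21.8 normalised pairs (relative log2 -0.93, interval -1.12 to -0.75, adjusted p = 2.2e-23 by the exact binomial test), the 0.516th percentile of all promoters. Its contacts went from 104 to 50.7 normalised contacts (-0.79, interval -0.98 to -0.60), the 0.389th percentile. Level and contacts share pairs, and whether contacts fell beyond the loss of ends at the promoter was not tested. The level call was kept in all 11 alternative settings, with values from -1.38 to -0.39, and so was the contact call, with values from -1.03 to -0.36. Smad6 was called in contacts in all 11 settings as well (-0.96 to -0.30). Of the 34 calls among the 10 genes, the other 31 were lost in at least 1 setting.

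The 10 genes were set beside a wider list of 44 further genes of the pathway, 43 of which were tested in level and 27 of which were marked. For TGFB1 over Control 1 of the list was called higher in level and 9 (20.9%) lower, against 7.22% of all and 22.9% of marked promoters. The gene called higher was Acvrl1, a type I receptor of the family (0.86, 69 and 65 pairs), and Pmepa1, a target gene that restrains SMAD signalling, was lower (-0.40). For TGFB1+miR-9-LOF over TGFB1 0 of the list were higher and 17 (39.5%) lower, against 16.8% of all and 55.5% of marked promoters, among them Ltbp2, a latent TGFB binding protein (-0.73). For miR-9-LOF over Control 2 were higher, including Acvrl1 (1.09), and 29 (67.4%) lower, against 33.0% and 89.0%, with the coreceptor Tgfbr3 at -0.97. For TGFB1+miR-9-LOF over miR-9-LOF 0 were called. The medians of the list, which are relative to the median of all promoters, were -0.16, -0.26, -0.47 and -0.00475 in these comparisons, and those of the marked promoters -0.19, -0.36, -0.49 and -0.11. In contacts the list had 0 higher in each comparison and 5 (11.4%), 11 (25%), 25 (56.8%) and 0 lower, where 3.65%, 6.18%, 23.3% and 0.115% of all promoters and 12.1%, 20.3%, 68.3% and 0.227% of marked promoters were, with Usp4, a deubiquitinase of TGFBR1, at -0.64 where 11 were lower and at -0.78 where 25 were. Most lower calls of the list were lost relative to the median marked promoter and within deciles of coverage. Only 27 of the 44 were marked, so the marked median was no like comparison for the rest. With library totals 29, 32, 37 and 4 were lower in level and 19, 21, 33 and 0 in contacts. With a window of 1 kb the lower calls of the list in level went from 9 to 1 (2.38%, against 2.29% of all promoters) for TGFB1 over Control. For TGFB1+miR-9-LOF over TGFB1 they went from 17 to 5 (11.9%, against 7.69% of all). With 5 kb these counts were 17 (38.6%, against 12.6%) and 24 (54.5%, against 19.7%). Contact calls of the list for TGFB1+miR-9-LOF over TGFB1 went from 11 to 1 (2.27%, against 1.43% of all) when counted from 100 kb. Relative to the median marked promoter 1, 0, 8 and 0 were lower and 1, 5, 6 and 0 higher in level, and within deciles of coverage 0, 0, 2 and 0 were lower and 0, 0, 2 and 0 higher. In contacts these counts were 2, 1, 6 and 0 lower with 1, 0, 10 and 0 higher, and 0, 0, 6 and 0 lower with 0, 0, 1 and 0 higher.

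The far ends of the contacts showed different neighbourhoods for the 10 genes. Over the 4 libraries the median distance ran from 88.7 kb for Smad6 and 91.6 kb for Ski to 303 kb for Smad2. Contacts lay mainly downstream for Ski (73.5%) and Smad3 (63.4%) and mainly upstream for Smad4 (32.6% downstream) and Skil (33.5%). Far ends at another marked promoter made up 7.45% of the contacts of Ski, 5.27% of Tgif1, 5.10% of Skil and 0 of 322 for Smad4, which allows up to 0.932%. The shares of the other 6 genes ran from 0.847% (Tgfbr1) to 3.07% (Smad3). Of both ends of all contacts in a library, 3.80% to 8.44% lay at marked promoters. That share counts the enriched ends as well as the far ends, so the shares of the genes cannot be set against it. Between 15.8% (Smad7) and 21.5% (Smad2) of the pairs at each start joined another chromosome.

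An expected number of pairs was computed from the distance and from the coverage of both ends, and the 10-kb bin with the largest excess over it was found for each gene. Ski had 99 pairs against 28.5 expected (ratio 3.48) 90 kb downstream within Morn1. Its window and that of the Morn1 start, picked from 71 candidate genes as sharing the most pairs, shared 143 pairs against 67.9 (2.11). Over the 10 genes, ratios for starts picked in this way ran from 0.791 (Smad6 with Lctl) to 2.87 (Smad4 with Elac1). Smad7 had 85 pairs against 25.7 (3.31) 130 kb downstream and 60 against 15.1 (3.97) 230 kb downstream, both within Ctif. In the nearer of these bins the counts were 36, 17, 23 and 9 pairs, above the expected number in all 4.

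Tgfbr2 had its largest excess 210 kb upstream, where no coding gene lay, with 58 pairs against 17.7 (3.28). Tgif1 had 155 pairs against 70.1 (2.21) 100 kb downstream within Dlgap1, and Skil had 61 against 24.7 (2.46) 30 kb upstream. Smad3 had 65 against 31.3 (2.07) 100 kb downstream, within its own gene, and Smad6 had 106 against 66.7 (1.59) at the same distance downstream. These stand beside smaller counts at the low genes. Smad4 had 23 pairs against 7.10 (3.24) at the bin that holds the start of Elac1 50 kb upstream, Tgfbr1 had 17 against 4.06 (4.19) 100 kb upstream within Col15a1, and Smad2 had 14 against 4.03 (3.48) 50 kb upstream. The bins were selected for their excess, so the ratios are descriptions with no test.

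Smad3 and Smad6 lie 264 kb apart on chromosome 9, on the same strand, with no coding start between them, and both are marked promoters with many contacts. Pairs that joined their windows numbered 5, 3, 2 and 4 in the 4 libraries, where 40.0, 15.1, 8.86 and 13.4 were expected from distance and coverage. All 4 libraries were below expectation, at ratios of 0.125, 0.198, 0.226 and 0.298. The 14 pairs in all, against 77.4 expected, gave a ratio of 0.181 (interval 0.099 to 0.304) and made up 0.826% of the contacts of Smad3 and 0.694% of those of Smad6. With windows of 25 kb the ratio was 0.31, above that interval and still below 1. Most pairs of promoters at this distance also lay below expectation, with a median ratio of 0.494 over 2089 pairs of marked promoters 238 to 290 kb apart, among which Smad3 and Smad6 stood at the 4.69th percentile. On chromosome 9 the median of 93 such pairs was 0.604. The counts were too small to show a difference between libraries, with adjusted p from 0.92 to 1.00 by exact binomial tests. The adjustment ran over 8 tests, which included those of Smad2 and Smad7.

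**Figure D4:**
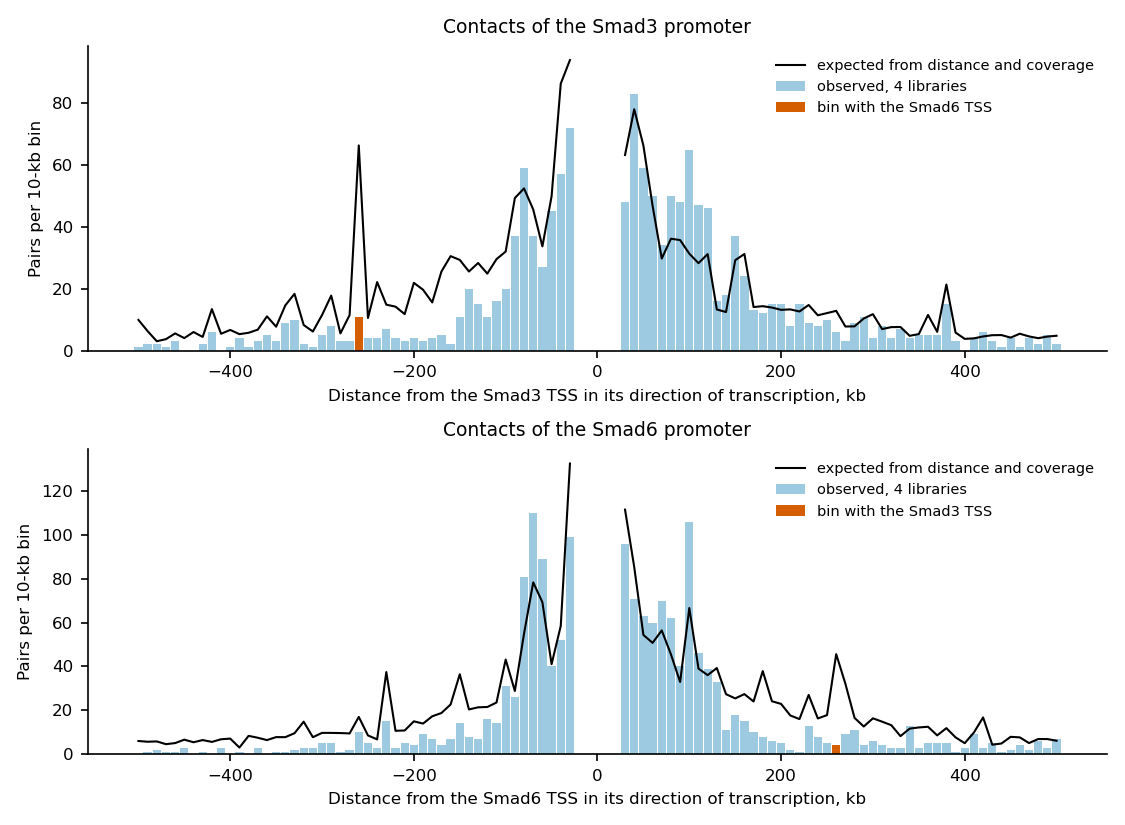
Pairs per 10-kb bin over the 4 libraries (bars) for the Smad3 window (upper panel) and the Smad6 window (lower panel), by distance from the start in the direction of transcription in kb. The line is the number expected from distance and coverage, and the orange bar is the bin with the start of the other gene. The line peaks at the orange bar in both panels while the bar stays far below it.

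The contacts of both genes were nearer to an even split between 20 and 100 kb than between 100 and 200 kb. In the nearer range, 45.0% of the Smad3 contacts (interval 41.5% to 48.5%) and 51.7% of the Smad6 contacts (48.7% to 54.6%) lay towards the other gene. Between 100 and 200 kb from the start, Smad3 had 100 pairs towards Smad6 and 269 away from it (27.1% towards), and the share was at or below 31.9% in each library. Smad6 had 242 pairs towards Smad3 and 96 away (71.6% towards) over the same range. From 20 to 500 kb the shares were 39.2% for Smad3 and 57.4% for Smad6, although the Smad6 share in TGFB1+miR-9-LOF was 52.5% with an interval (46.4% to 58.4%) that included an even split.

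Pairs that span a given point describe how often the chromatin on its sides met. Only pairs with ends at least 20 kb apart were counted. Of those with both ends within 200 kb of a point, 42.8% crossed the point nearest the Smad3 start and 44.8% the point nearest the Smad6 start. Between them the share went down to 18.97% (899 of 4739 pairs, Wilson interval 17.9% to 20.1%) 100 kb from Smad3 and 164 kb from Smad6. Over 4815 points on chromosome 9 with at least 1000 such pairs in the 4 libraries together, the median share was 35.7%. The range from the 5th to the 95th percentile was 23.3% to 44.4%. The lowest point was picked as the minimum of the points between the genes, 20 to 260 kb from Smad3. Its rank among single points of the chromosome is therefore not given. The lowest share lay 100 kb from Smad3 in Control (16.5%) and miR-9-LOF (20.2%) and 140 kb from it in TGFB1 (19.3%) and TGFB1+miR-9-LOF (20.7%). Within the interval between the genes, all 4 libraries thus had their lowest share in the same stretch. A second dip, almost as low, lay outside that interval, 96 kb beyond Smad6, where 20.4% of the pairs crossed (17.9% in Control and at most 22.3% in the other libraries). The share was not corrected for coverage, which was high at both promoters.

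**Figure D5:**
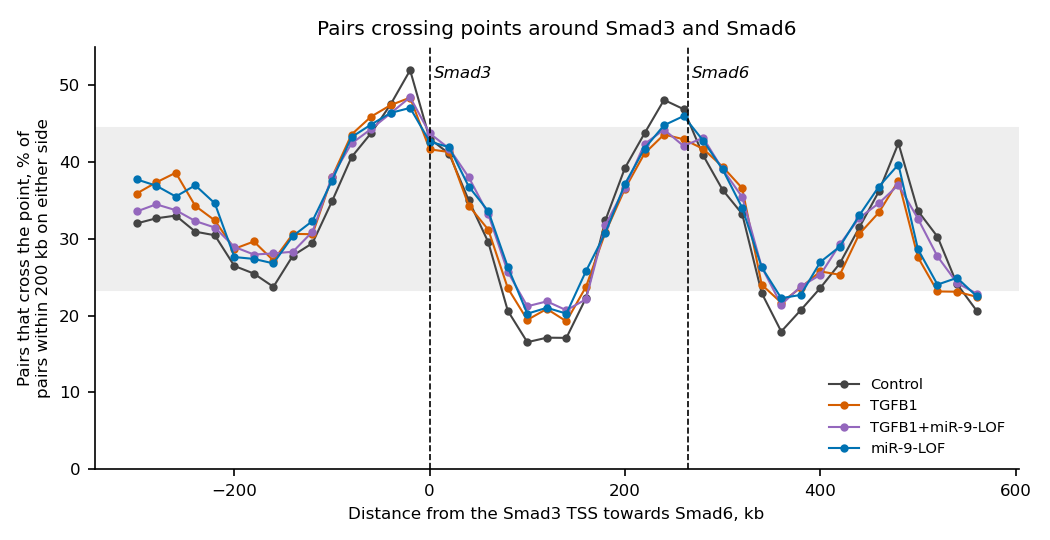
Percentage of the pairs within 200 kb of a point that cross it (y axis) by distance of the point from the Smad3 start towards Smad6 in kb, for the 4 libraries. Dashed lines are the starts of Smad3 and Smad6. The grey band spans the 5th to 95th percentile of chromosome 9 for the 4 libraries together. All 4 curves fall below the band between 100 and 140 kb, where the lowest shares are 16.5% to 20.7%, and again 360 kb from Smad3, beyond Smad6. The low points were picked from the curves, so their place below the band is a description.

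Other pairs of the 10 genes lay close enough to be counted. Smad2 and Smad7, 874 kb apart, shared 3 pairs where 2.50 were expected, and Smad4 and Smad7 shared 0 pairs, which allows up to 0.125 per 1000000 pairs 20 kb to 2 Mb apart. Neither count could be told from its expectation at this depth.

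The promoters whose levels across the 4 libraries were most like those of each gene, by Euclidean distance of the centred log2 values over 4 libraries, were Ramac for Tgif1 (0.00349), Mrpl39 for Smad4 (0.00948), Dlg1 for Skil (0.0108), Primpol for Tgfbr2 (0.0140), Hivep2 for Ski (0.0137), Ets2 for Smad3 (0.0199), Ttc19 for Smad7 (0.0268), Zfp827 for Smad6 (0.0289), Mllt10 for Smad2 (0.0370) and Prpf3 for Tgfbr1 (0.0553). Smad7 and its nearest promoter Ttc19 were both lowest in miR-9-LOF, as were Smad2, Smad4 and theirs, whereas the remaining genes and theirs were lowest in TGFB1+miR-9-LOF. With 4 points per gene these likenesses are descriptions.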

How the data were processed

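H3K4me3 HiChIP-seq was performed on MLg cells, with 1 library per condition. Per the labels and the methods of the study, the authors digested chromatin with MboI and ran HiC-Pro (version not given in the sources used here) with default settings on mm10, and deposited a list of valid pairs per library, with the position of each end, its restriction fragment and a mapping quality score. No normalisation had been applied to the deposited pairs, which were counted here as positions (Python 3.11.15, numpy 2.4.6, pandas 2.3.3, scipy 1.17.1, statsmodels 0.14.6). A library held 10864558 to 15568047 pairs.

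Start sites were those of the principal coding transcript. Pairs with an end within 2 kb (level) and pairs 20 kb to 2 Mb apart with an end within 10 kb (contacts) were counted for every coding gene, with a minimum of 50 pairs over the 4 libraries. Libraries were compared by two-sided exact binomial tests centred on the median promoter, with Benjamini-Hochberg adjustment over all promoters tested. Intervals were exact Poisson for counts, Clopper-Pearson for ratios and Wilson for shares, at 95%, and the floor of a count of 0 was 3 counts. Expected contacts came from the distance and the coverage of 1-kb bins. On simulated counts for TGFB1 over Control with 200 promoters changed 1.5-fold, 46 were recovered in level with 4 other calls among 20346, and 73 in contacts with 2 others among 20847. Both simulated libraries were drawn from the same pooled shares, without the difference in enrichment between the real libraries. The few other calls therefore do not give the rate of false calls in these data. Of the changed promoters with at least 4 times the median number of pairs, 9 of 10 were recovered in level. On a simulated chromosome 9 without loops the ratio of observed to expected pairs was 0.962. That chromosome was itself drawn from distance and coverage, so a ratio near 1 was built in. It does not test the expected number at enriched promoters.

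The 10 genes, the pathway and marker lists and the tests were chosen with earlier results of these data known. All 10 genes are reported, together with the pathway gene of highest and lowest value among those called in a comparison, the leading of the 3 bins of largest excess (for Smad7 also the second) and the most similar promoter of each gene. The levels per MboI site, per own flank, the distance factor from chromosome 9 alone and the profile of crossing pairs were chosen after seeing the data. Alternatives varied the windows, distances, start sites, mapping quality, minimum, scaling and counting of fragment pairs. RefSeq sequences outside chromosome 18 were matched by symbol.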

Additional observations from a re-analysis of the deposited data

How the results depend on the processing

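No paired analysis was possible because there was 1 library per condition. Over 880 alternatives of the between-library values of the 10 genes, the side of the threshold and the direction were kept in 700, a call was lost in 80 without a change of direction and gained in 17, and the direction turned in 83. In 76 of these 83 neither value was called, 19 of them relative to the median marked promoter and 16 within deciles of coverage. The 7 turned values that involved a call were, for level in TGFB1+miR-9-LOF over TGFB1, Smad6 (0.0152), Smad7 (0.0081) and Ski (0.00311) relative to the median marked promoter and Smad6 (0.0642) and Smad7 (0.0570) within deciles of coverage. For contacts in miR-9-LOF over Control, Tgfbr2 turned to 0.0481 and 0.0928 under these scalings. The median of the 10 genes for level in TGFB1+miR-9-LOF over TGFB1 went from -0.35 to 0.0056 relative to the marked median and to -0.67 from library totals. It went from -0.27 to -0.0782 and -0.55 in TGFB1 over Control, and from -0.64 to -0.15 and -1.08 in miR-9-LOF over Control, where it was -0.27 within deciles of coverage. In contacts for miR-9-LOF over Control it went from -0.49 to -0.11 and -0.73. In contacts for TGFB1 over Control it turned from -0.15 to 0.022 relative to the marked median and was -0.29 from library totals. These shifts follow from the construction of the scalings.

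The median log2 level of the 10 genes over the median promoter was 2.48, 2.00, 1.45 and 1.66 in the 4 libraries. In Control it was 2.02 with a window of 1 kb, 2.04 with 5 kb, 2.01 at the 5′ end of the gene record, 2.37 at the start with the most pairs, 0.36 over the marked median, 2.69 with no minimum, 2.32 per MboI site and 2.04 over the own flanks. In TGFB1 it was 1.66, 1.69, 1.63, 0.19 and 1.75 with 1 kb, with 5 kb, at the 5′ end, over the marked median and over the own flanks. In TGFB1+miR-9-LOF it was 1.21 with 5 kb, 1.09 at the 5′ end, 0.10 over the marked median and 1.22 over the own flanks. In miR-9-LOF it was 1.18 with 1 kb, 1.27 with 5 kb, 1.22 at the 5′ end, 0.12 over the marked median and 1.38 both per MboI site and over the own flanks. The cause of the shifts with window and start was not tested. With windows of 25 kb the Smad3 and Smad6 ratio of observed to expected pairs was 0.31.

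Counts of calls also moved by over 1.5 times with the window and distance. For TGFB1 over Control, 1469 lower and 562 higher calls in level became 418 and 212 with 1 kb and 2648 and 1002 with 5 kb. With 1 kb the calls among the 10 genes went from 5 to 0 here, from 9 to 6 for miR-9-LOF over Control, and from 7 to 2 for TGFB1+miR-9-LOF over TGFB1. Contacts went from 760 and 264 to 351 and 126 with 5 kb, 1530 and 720 with 25 kb, 420 and 146 up to 500 kb and 183 and 58 from 100 kb, where 0 of the 3 calls among the 10 genes were left. For TGFB1+miR-9-LOF over TGFB1, level went from 3415 and 990 to 1405 and 668 with 1 kb. Its contacts went from 1289 and 265 to 296 and 51 from 100 kb and to 894 and 169 up to 500 kb. With 25 kb they were 1726 and 494. For miR-9-LOF over Control, contacts went from 4859 and 3205 to 2993 and 1607 from 100 kb (5 of 8 genes) and to 5372 and 5119 with 25 kb (6 of 8). Level in that comparison went from 6715 and 3633 to 4470 and 2891 with 1 kb. For TGFB1+miR-9-LOF over miR-9-LOF, level went from 172 and 61 to 115 and 29 with 1 kb and 190 and 93 with 5 kb. Its 24 and 21 contact calls became 8 and 5 with 5 kb, 191 and 162 with 25 kb, 3 and 2 up to 500 kb, 0 and 2 from 100 kb and 10 and 8 at a mapping quality of at least 30.

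Depth limited the low genes, since Tgfbr1, Smad2 and Smad4 had 30 to 107 pairs per library in level, and the simulated recovery was low at ordinary promoters. With 1 library per condition, the spread between libraries of 1 condition could not be measured.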
